A study of Ovis aries with 12 samples.

Results

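The genes of respiratory complex I were described in the longissimus dorsi, the long back muscle, of Tan sheep (Ovis aries) fed graded amounts of succinate. Members were all rows of the count table whose gene identifier starts with NDUF. There were 47 such rows of 21257, and all 47 were among the 13319 genes that passed the filter on low counts. They comprised 7 core subunits, 30 accessory subunits, 8 assembly factors (NDUFAF1 to NDUFAF8) and 2 genes whose products are not complex I subunits, NDUFA4 and NDUFA4L2. The classes follow the human nomenclature. The sheep were 5 months old, 36 in number and 9 per diet, and lived in single pens through 60 days of feeding that followed 10 days of pretrial. The control group received a basal diet. The other groups received that diet with 0.5% (SUC1), 1% (SUC2) or 2% (SUC3) succinate. Each diet contributed 3 libraries, 12 in all, and neither sex nor genotype was given in the labels. The labels do not tie a library to a single animal or to pooled animals, so the p-values reflect only variation among these libraries, and some of it may be technical.

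Complex I is the entry point of NADH electrons into the mitochondrial respiratory chain: it oxidises NADH, reduces ubiquinone and pumps protons across the inner membrane. Complex II, succinate dehydrogenase, oxidises succinate and feeds the same ubiquinone pool. Core subunits carry the flavin and the iron-sulphur clusters and are conserved from bacteria, accessory subunits surround and stabilise them, and assembly factors help to build the complex without remaining in it. The membrane core subunits are encoded by the mitochondrial genome (ND genes), and all NDUF genes are nuclear. In muscle the complex is most abundant in oxidative fibres.

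No NDUF gene passed an adjusted p of 0.05 in any comparison of the diets. Libraries held 15742428 to 18564057 counts, and the NDUF rows took 0.354% to 0.557% of them. The control mean of that share was 0.472% ± 0.0741, the SUC1 mean 0.456% ± 0.0890, the SUC2 mean 0.445% ± 0.0567 and the SUC3 mean 0.470% ± 0.0405 (SD, n = 3 each), so the diet means differed by less than the spread within diets. Markers of the muscle fibre were abundant in every library, with 5 of 5 general, 6 of 7 slow and 6 of 7 fast fibre genes tested. Control replicate 1 stood apart from the other libraries in the NDUF genes, as described below, and values without it are given for results that move with it.

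Per length, assembly factors were expressed below core subunits, while accessory subunits overlapped both classes. FPKM, the deposited value scaled for gene length and library total, is the scale of the levels in this paragraph, averaged over 12 libraries. Core subunits had a median of 133 FPKM, with NDUFS8 lowest at 93.0. Accessory subunits had a median of 99.5 FPKM, with NDUFA8 highest at 220.3. Assembly factors had a median of 11.3 FPKM, from 4.31 for NDUFAF7 to 28.0 for NDUFAF8. All 8 assembly factors thus lay below all 7 core subunits. Among accessory subunits, 2 genes lay far below the rest: NDUFB1 was at 7.29 FPKM and NDUFA3 at 0.627 FPKM. The row of NDUFA3 had as few as 10 counts in a library and shares 8221 bases with TFPT on the opposite strand, which itself had 6 to 16 counts. No other row of the table overlaps NDUFB1. The genes similar to NDUFB1 under placeholder identifiers had 0 counts in every library. Copies of some other members had counts, and the handling of reads shared by copies is not given.

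**Figure D1:**
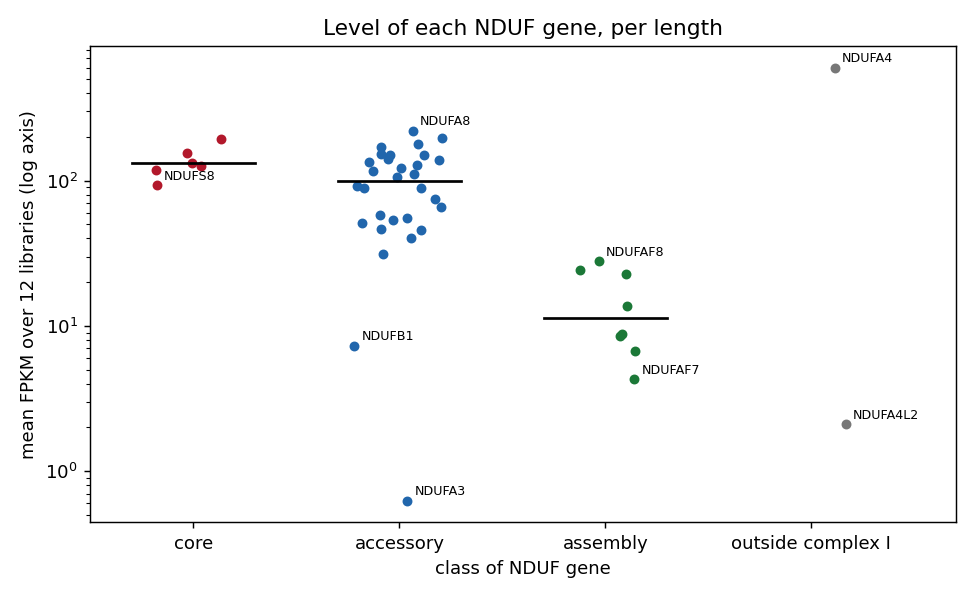
Each point is 1 of 46 of the 47 NDUF genes at its mean FPKM over 12 libraries (vertical log axis), by class, with black lines at the medians over all members of a class, 133, 99.5 and 11.3 FPKM. Assembly factors lie below every core subunit, and NDUFB1 and NDUFA3 lie below the other accessory subunits.

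Levels from here on are CPM, which are counts scaled to the TMM-adjusted library total, and differences are log2 fold changes from edgeR. The floor of 3 counts corresponded to 0.157 to 0.207 CPM and every member lay above it in every library. Over the 12 libraries the core and accessory subunits moved largely together. Control replicate 1 had the highest level of all 12 libraries in 37 of 47 NDUF genes, comprising 7 of 7 core subunits, 26 of 30 accessory subunits, 3 of 8 assembly factors and NDUFA4. On CPM without TMM scaling it was highest in 21 of 47. Its level was 1.56 times the mean of the other controls (median over 47 genes), and 1.51 times for core, 1.60 times for accessory and 1.28 times for assembly genes, against 0.983 over all genes tested. It lay above both other controls in 44 of 47 NDUF genes (93.6%), against 34.3% of all genes tested. Its TMM factor was the lowest, 0.857, against 0.923 to 1.10 in the other libraries. The summed slow fibre markers were at 12700 CPM in control replicate 1 and at 5088 and 7655 CPM in control replicates 2 and 3, and the fast fibre markers at 101554, 66205 and 74850 CPM. The summed general muscle fibre markers were at 124427, 75197 and 81131 CPM in the same order. The part of fibre makeup, of scaling or of the library itself in the NDUF values was not tested. In bulk muscle, fewer cells of a type and less RNA per cell cannot be told apart.

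**Figure D2:**
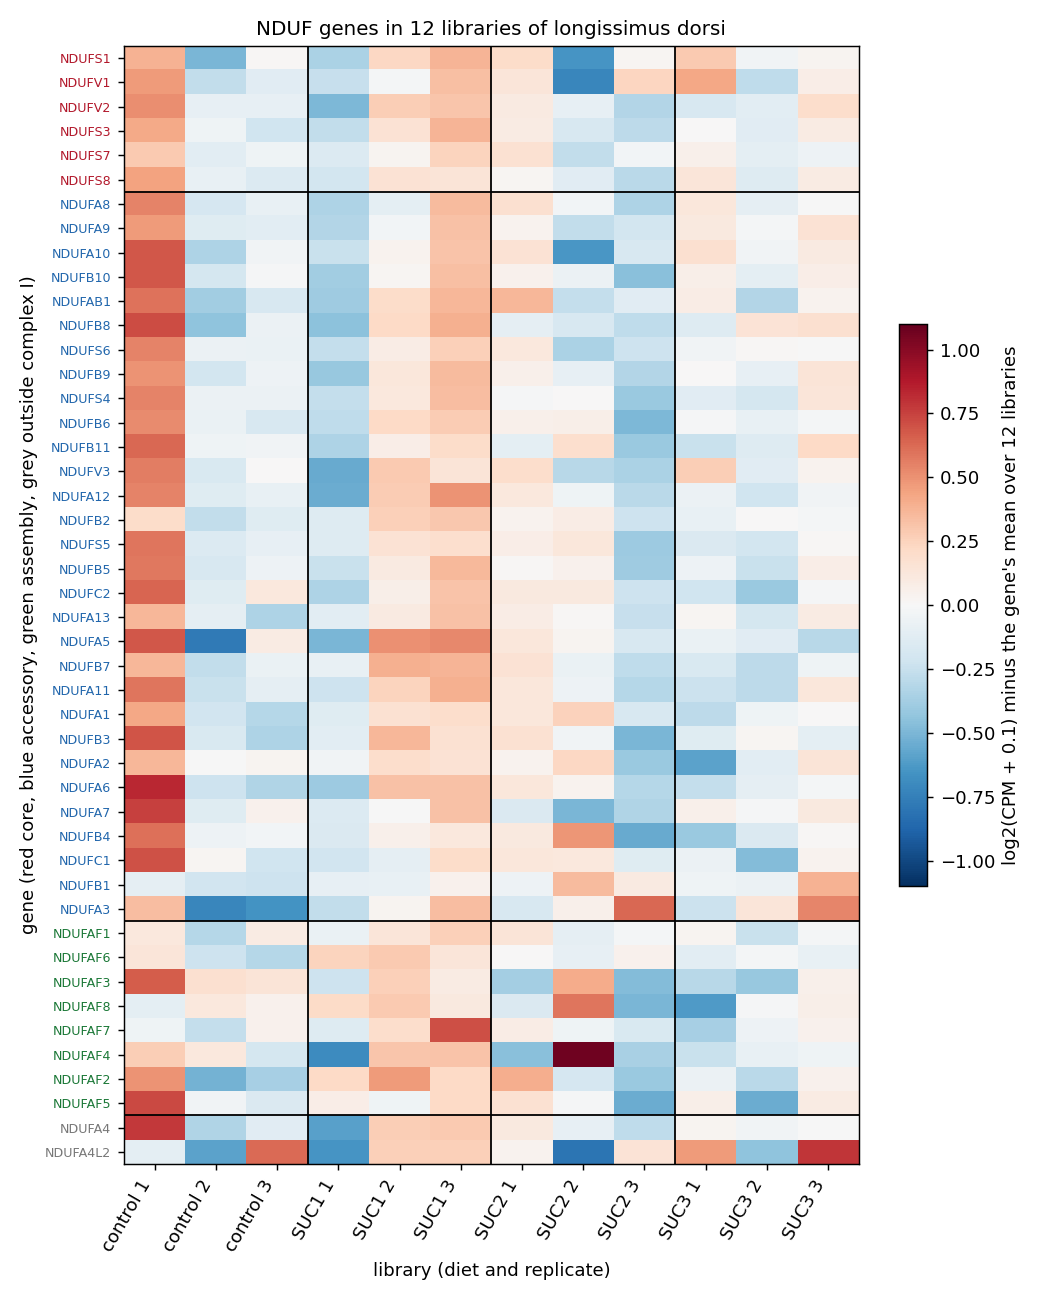
Rows are 46 of the 47 NDUF genes, grouped by class and ordered by mean CPM within it, and columns are the 12 libraries. Colour is log2(CPM + 0.1) minus the gene's mean over 12 libraries; control replicate 1 is red in most core and accessory rows, and SUC2 replicate 2 is blue in NDUFS1 and NDUFV1 and dark red in NDUFAF4.

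The lowest levels were spread over more libraries. SUC2 replicate 3 was lowest in 13 of 47 NDUF genes, SUC1 replicate 1 in 10 and SUC2 replicate 2 in 8. SUC2 replicate 2 was lowest for genes that included NDUFS1, NDUFS7, NDUFV1, NDUFA10, NDUFA7, NDUFS6 and NDUFA4L2, yet highest of all libraries for the assembly factors NDUFAF4 and NDUFAF8. The log2 ratio of summed core over summed assembly CPM was 3.05 in that library and 3.90 and 3.96 in the other SUC2 libraries. Long genes were relatively low there: over all genes tested, the Spearman correlation of gene length with deviation from the gene's mean was -0.30, and over the 47 members -0.40. In SUC2 replicate 3 these values were 0.21 and 0.36, and in control replicate 1 they were -0.19 and -0.41. The median gene length in the table was 1556 bases for core, 615 for accessory and 1665.5 for assembly genes. NDUFAF4, highest in SUC2 replicate 2, has 2131 bases, and NDUFAF8 has 612. The part of gene length in the differences between classes was not tested.

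**Figure D3:**
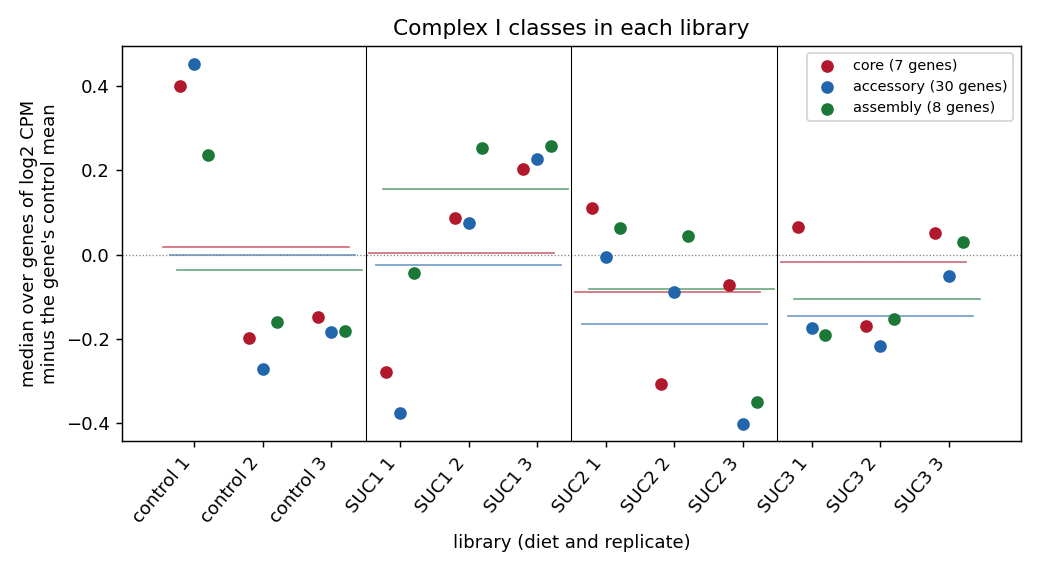
Each point is the median over the genes of a class, in 1 library, of log2 CPM minus the gene's mean in control (vertical axis); horizontal lines are means of the 3 libraries of a diet. Control replicate 1 reaches 0.40 for core and 0.45 for accessory genes. For core and accessory genes the libraries of each diet spread over a wider range than the diet means. For assembly factors the SUC3 libraries do not.

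The core subunits of the NADH-oxidising arm did not differ between diets beyond the spread of their libraries. NDUFV1, which holds the flavin and the NADH site, was at 328, 196 and 217 CPM in control, 199, 234 and 298 in SUC1, 260.3, 144 and 279.7 in SUC2 and 318, 195 and 249.9 in SUC3. NDUFV2, which carries an iron-sulphur cluster beside the flavin, was at 323, 214 and 213 CPM in control, 162, 274 and 281 in SUC1, 243, 214 and 181 in SUC2 and 201, 210.2 and 259.7 in SUC3. NDUFS1, the largest subunit and carrier of several iron-sulphur clusters, was at 717, 389 and 555 CPM in control, 432, 642 and 712 in SUC1, 633, 350.0 and 559 in SUC2 and 673, 536 and 562 in SUC3. For all 3 genes the libraries of each succinate diet overlapped those of control, with control replicate 1 highest. The low SUC2 values of NDUFV1 and NDUFS1 came from replicate 2. NDUFS1, on chromosome 2 from 208246898 to 208280323, had log2 fold changes of 0.10 ± 0.28 (SE) in SUC1, -0.11 ± 0.28 in SUC2 and 0.09 ± 0.28 in SUC3 (edgeR adjusted p = 0.977, 0.883 and 0.920). They were 0.33, 0.12 and 0.32 without control replicate 1.

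The core subunits of the ubiquinone-reducing arm did not pass in any diet either. NDUFS7, which carries the last cluster of the electron path, was at 213, 161 and 168 CPM in control, 157, 178 and 206 in SUC1, 195, 145 and 170.5 in SUC2 and 181, 161 and 168 in SUC3. It was lowest in SUC2 replicate 2, and the other SUC2 libraries lay within the range of control. NDUFS3, which carries no cluster, was at 247, 178 and 159 CPM in control, 153, 206 and 239.6 in SUC1, 197, 163 and 151 in SUC2 and 185, 169.8 and 196 in SUC3. NDUFS8, an iron-sulphur subunit, was at 163, 113 and 108 CPM in control, 104, 133 and 132 in SUC1, 121, 109.7 and 97.5 in SUC2 and 131, 109 and 127 in SUC3. For NDUFS3 and NDUFS8 the groups overlapped and the lowest library was SUC2 replicate 3. NDUFS8 had the smallest p among core genes in SUC2, with a log2 fold change of -0.22 ± 0.19 (edgeR adjusted p = 0.590), and of -0.014 without control replicate 1.

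In SUC1 against control, 0 of 47 NDUF genes passed by edgeR (percent called over all genes 0%), and 0 passed by DESeq2 or limma. At an unadjusted p under 0.05 there was 1 member, NDUFAF6, against 7.61% of all genes. Of the 47 members 30 had a negative fold change (63.8%), against 51.7% of all genes, with a median of -0.03 against -0.01. No member lay wholly below control, against 6.81% of all genes. Core genes had a median of -0.02, accessory genes of -0.06 and assembly factors of 0.16, and 5 of 8 assembly factors were positive. Without control replicate 1 the median over the 47 members was 0.20 with 2 negative, and without SUC1 replicate 1 the number negative was 8. Summed adipocyte markers were at 105 to 153 CPM in SUC1 and 43.9 to 51.6 in control, and matrix and fibroblast markers at 778 to 1670 and 385 to 711 CPM. Both sums lay wholly above control in SUC1, while CIDEC, COL1A1, COL1A2, DCN and PDGFRA of these lists overlapped control singly. The part of these markers in the NDUF values was not tested.

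NDUFAF6, an assembly factor of the ubiquinone arm on chromosome 9 from 82191052 to 82235218, was at 22.1, 17.2 and 16.2 CPM in control and 23.9, 24.5 and 22.0 in SUC1. It was at 20.1, 18.9 and 20.8 CPM in SUC2 and 18.6, 19.9 and 19.0 in SUC3. The SUC1 libraries were the high ones, above both other diets, and overlapped control through control replicate 1. Its log2 fold change in SUC1 was 0.35 ± 0.16 (edgeR adjusted p = 0.647), from 18.5 ± 3.15 to 23.5 ± 1.30 CPM (SD, n = 3), and 0.49 without control replicate 1. A similar gene under a placeholder identifier had 9 to 34 counts per library, so the value of NDUFAF6 is uncertain. NDUFAF7, a methyltransferase of the mitochondrial matrix, was at 14.1, 12.1 and 15.1 CPM in control and 13.2, 16.7 and 23.9 in SUC1. The difference of 0.38 ± 0.22 (edgeR adjusted p = 0.758) rested on SUC1 replicate 3 and was 0.12 without it. NDUFAF7 shares 4203 bases with PRKD3 on the opposite strand. NDUFAF2, a paralog of NDUFA12 that acts late in assembly, was at 19.2, 9.42 and 10.5 CPM in control and 15.8, 18.8 and 15.8 in SUC1 (log2 fold change 0.37 ± 0.28, edgeR adjusted p = 0.847). Control replicate 1 lay above the SUC1 libraries of NDUFAF2 and the other controls below them, and without control replicate 1 the value was 0.75.

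Among accessory subunits in SUC1, the 3 with the smallest p did not pass either. NDUFB7, a subunit of the intermembrane face, was at 65.0, 41.7 and 47.8 CPM in control and 47.5, 66.2 and 65.1 in SUC1 (log2 fold change 0.21 ± 0.20). NDUFB2, of the distal membrane arm, was at 92.0, 65.9 and 72.8 CPM in control and 72.3, 95.6 and 98.2 in SUC1 (0.21 ± 0.18). NDUFC1, of the proximal membrane arm, was at 40.5, 25.2 and 21.4 CPM in control and 21.4, 23.2 and 28.6 in SUC1 (-0.25 ± 0.24). In each gene the SUC1 libraries overlapped control, and the edgeR adjusted p lay between 0.870 and 0.892. Without control replicate 1 the fold change was 0.41 for NDUFB7, 0.36 for NDUFB2 and 0.07 for NDUFC1. A copy of NDUFC1 under a placeholder identifier had 0 to 46 counts per library, so the value of NDUFC1 is uncertain.

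In SUC2 against control, 0 of 47 NDUF genes passed by edgeR, DESeq2 or limma, where edgeR called 1.43% of all genes. At an unadjusted p under 0.05 there was 1 member, NDUFA7 (2.13%), against 17.9% of all genes. Negative fold changes were seen in 37 of 47 members (78.7%), against 50.2% of all genes, with a median of -0.20 against -0.00. By class, 7 of 7 core genes (median -0.12), 26 of 30 accessory genes (median -0.21) and 2 of 8 assembly factors (median 0.04) were negative. Without control replicate 1 the count was 15 of 47, comprising 2 core and 9 accessory genes among others, and the median was 0.06. In the summed fast fibre markers SUC2 lay at 55100 to 59195 CPM, below the lowest control at 66205, while its slow fibre markers (7839 to 10988) overlapped control. Of the fast fibre genes MYH1, MYBPC2 and ACTN3 lay below every control singly, while MYH2, TNNI2 and TNNT3 overlapped control. Immune markers were at 38.7 to 51.0 CPM in SUC2 and 16.5 to 27.2 in control, and all 5 of the list had a positive fold change. Summed adipocyte markers (61.6 to 172 CPM) and summed matrix and fibroblast markers (761 to 991 CPM) also lay above every control in SUC2. FABP4, COL3A1 and PDGFRA did so singly, while ADIPOQ, PLIN1, CIDEC, COL1A1, COL1A2 and DCN overlapped control. The part of these markers in the NDUF values was not tested.

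NDUFA7, a small accessory subunit of the peripheral arm encoded on chromosome 5 from 14700189 to 14707467, was at 46.9, 25.3 and 28.7 CPM in control, 25.0, 27.7 and 34.6 in SUC1, 24.8, 19.6 and 22.1 in SUC2 and 28.7, 27.4 and 29.9 in SUC3. The SUC2 libraries were the low ones and did not overlap those of any other diet, and the gap to the lowest control was small. Its log2 fold change in SUC2 was -0.60 ± 0.22 with a 95% interval of -1.08 to -0.12 (edgeR adjusted p = 0.177), and it was -0.28 without control replicate 1. Groups that do not overlap, SUC2 lower, were found for 1 of 47 members, against 10.6% of all genes. NDUFS6, a zinc-binding subunit of the NADH arm, was at 146, 95.3 and 94.8 CPM in control and 108, 78.2 and 85.3 in SUC2. NDUFB10, of the distal membrane arm, was at 201, 109.7 and 124 CPM in control and 129, 119 and 91.0 in SUC2. SUC2 overlapped control in both genes, whose log2 fold changes were -0.31 ± 0.21 and -0.36 ± 0.25 (edgeR adjusted p = 0.483 and 0.488) and -0.07 and -0.05 without control replicate 1.

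Assembly factors in SUC2 differed in direction among themselves. NDUFAF3, which acts on the ubiquinone arm with NDUFAF4, was at 26.8, 19.2 and 18.7 CPM in control and 13.0, 22.5 and 12.1 in SUC2. NDUFAF4 was at 16.3, 14.6 and 11.9 CPM in control and 9.83, 28.5 and 10.5 in SUC2. NDUFAF8, the partner of NDUFAF5, was at 15.4, 18.1 and 17.3 CPM in control and 15.0, 25.2 and 11.7 in SUC2. In these 3 genes SUC2 replicate 2 was high and the other SUC2 libraries were below every control. NDUFAF3 had a log2 fold change of -0.44 ± 0.26 (edgeR adjusted p = 0.407), of -0.77 without SUC2 replicate 2 and of -0.25 without control replicate 1. NDUFAF5, which hydroxylates an arginine of NDUFS7, was at 16.8, 9.80 and 9.06 CPM in control and 11.3, 9.99 and 6.91 in SUC2 (-0.33 ± 0.28, edgeR adjusted p = 0.582). Its difference rested on control replicate 1 and was -0.00 without it.

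In SUC3 against control, 0 of 47 NDUF genes passed by edgeR, DESeq2 or limma, where edgeR called 0.00751% of all genes. NDUFAF3 was the member at an unadjusted p under 0.05, 1 of 47 against 12.4% of all genes. Fold changes were negative in 39 of 47 members (83.0%), against 51% of all genes, with a median of -0.16 against -0.01. The split by class was 4 of 7 core genes (median -0.06), 27 of 30 accessory genes (median -0.20) and 7 of 8 assembly factors (median -0.12). Without control replicate 1 the count was 9 of 47 and the median 0.11. With limma on FPKM, which takes no TMM scaling, 30 of 47 were negative. Summed slow fibre markers were at 11084 to 13152 CPM in SUC3, around the level of control replicate 1 and above the other controls, and all 6 had a positive fold change. Summed adipocyte markers (66.2 to 245 CPM) and summed matrix and fibroblast markers (905 to 1320 CPM) lay wholly above control in SUC3. Summed endothelial markers, at 326 to 670 CPM against 244 to 283 in control, did so too. Of these lists CIDEC, FABP4, DCN, PDGFRA, CDH5 and VWF overlapped control singly. The part of these markers in the NDUF values was not tested.

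NDUFAF3, on chromosome 19 from 51014507 to 51015631, was at 26.8, 19.2 and 18.7 CPM in control, 14.4, 20.2 and 18.0 in SUC1, 13.0, 22.5 and 12.1 in SUC2 and 13.6, 12.6 and 17.6 in SUC3. The SUC3 libraries all lay below control, the highest of them by a small gap. The difference was -0.56 ± 0.26 with a 95% interval of -1.12 to -0.01 (edgeR adjusted p = 0.399), from 21.6 ± 4.57 to 14.6 ± 2.64 CPM (SD, n = 3), and it was -0.37 without control replicate 1. It was the member without overlap on the low side in SUC3, 1 of 47 against 8.88% of all genes. NDUFC2, a subunit of the proximal membrane arm, was at 106, 62.2 and 73.9 CPM in control, 54.0, 71.5 and 84.7 in SUC1, 73.7, 73.5 and 58.5 in SUC2 and 58.5, 51.4 and 67.8 in SUC3. Its SUC3 replicates 1 and 2 lay below every control and the groups overlapped through replicate 3. Its log2 fold change in SUC3 was -0.45 ± 0.22 (edgeR adjusted p = 0.439), and -0.20 without control replicate 1.

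**Figure D4:**
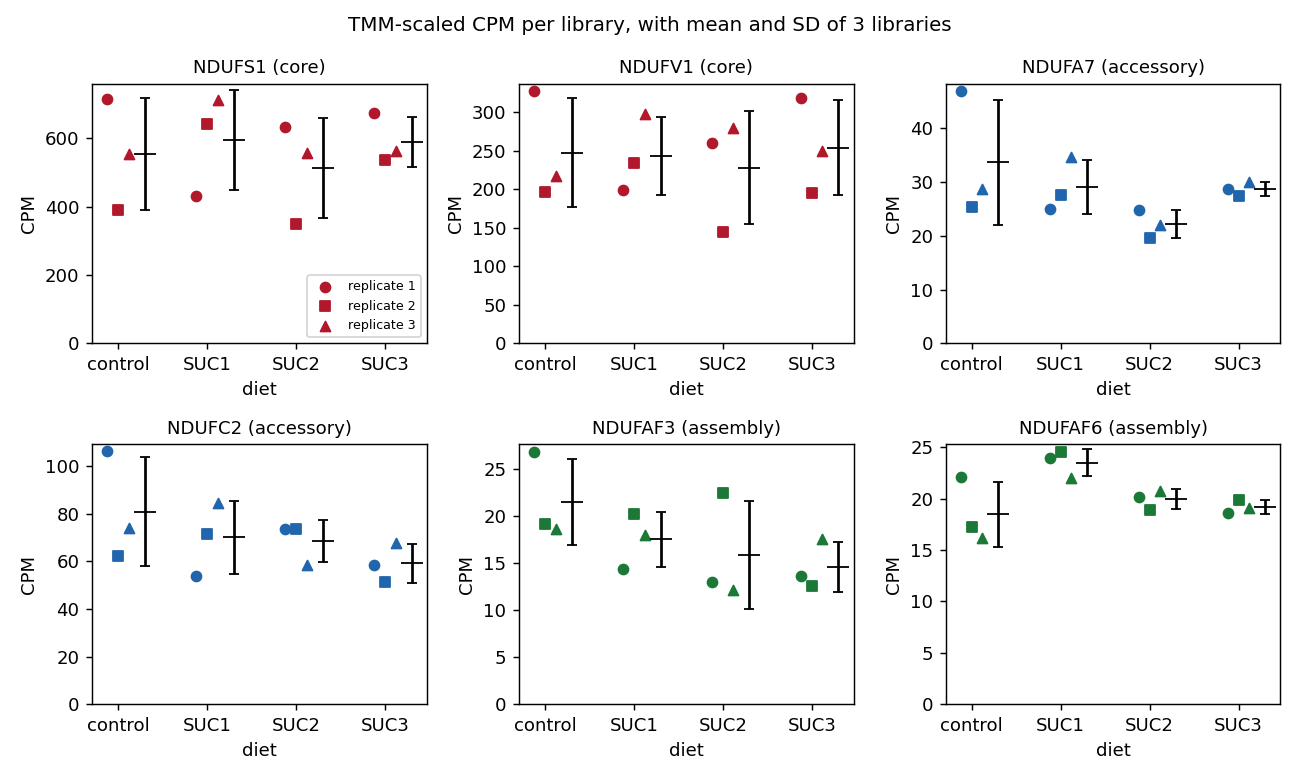
TMM-scaled CPM (vertical axes from 0) of NDUFS1, NDUFV1, NDUFA7, NDUFC2, NDUFAF3 and NDUFAF6 by diet; symbols are replicates 1 to 3, and the line and bar beside them are the mean and SD of 3 libraries. NDUFA7 is low in SUC2 and NDUFAF3 in SUC3 without overlap with control, while the other 4 genes overlap control in every diet.

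Other accessory and assembly genes of smallest p in SUC3 overlapped control. NDUFB4, of the distal membrane arm, was at 38.9, 24.6 and 25.0 CPM in control and 19.2, 22.9 and 25.7 in SUC3 (log2 fold change -0.38 ± 0.26). NDUFC1 was at 23.7, 17.8 and 25.6 CPM in SUC3 (-0.37 ± 0.24), against the control values given above. NDUFAF5 was at 10.6, 6.89 and 10.8 CPM in SUC3 (-0.33 ± 0.28). Control replicate 1 was the high library in all 3 genes, and the values without it were -0.13, -0.06 and -0.00. NDUFAF8 was at 10.8, 16.5 and 17.4 CPM in SUC3 (-0.18 ± 0.26), with SUC3 replicate 1 low. The fold change of NDUFAF8 was 0.00 without that library and -0.25 without control replicate 1.

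NDUFB1, a small distal membrane subunit of low level, was named after its values were seen. It was at 3.65, 3.38 and 3.33 CPM in control, 3.66, 3.69 and 4.06 in SUC1, 3.76, 5.02 and 4.19 in SUC2 and 3.79, 3.75 and 5.15 in SUC3. Each succinate diet lay above control without overlap, by a gap that was small in all of them, and the 3 comparisons share the control libraries. Groups without overlap on the high side were found for 7.4%, 11.5% and 9.15% of all genes in SUC1, SUC2 and SUC3. Its log2 fold changes were 0.14 ± 0.24, 0.33 ± 0.24 and 0.29 ± 0.24 (edgeR adjusted p = 0.963, 0.516 and 0.646).

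A slope over succinate percent was fitted as a single number per gene. Of the 47 NDUF genes 0 passed by edgeR, DESeq2 or limma (edgeR called 0.00751% of all genes), with NDUFAF3 at an unadjusted p under 0.05 (edgeR adjusted p = 0.439) against 10.8% of all genes. NDUFAF3 changed by -0.26 ± 0.12 log2 units per percent succinate. Slopes were negative in 41 of 47 members against 50.7% of all genes, with a median of -0.09 per percent, in 31 of 47 with limma on unscaled FPKM, and in 25 of 47 with a median of -0.00 without control replicate 1. The joint test for any difference among the 4 diets called 0 of 47 members by any of these tools, where edgeR called 0.0225% of all genes and 14.7% had an unadjusted p under 0.05 against 0 members. The smallest joint edgeR adjusted p among members was 0.449, for NDUFA7. The joint test also placed NDUFB7 and NDUFAF7 among the smallest of their classes. NDUFB7 was at 56.1, 47.9 and 41.4 CPM in SUC2 and 44.8, 41.3 and 48.7 in SUC3, and NDUFAF7 at 15.5, 14.1 and 12.9 CPM in SUC2 and 11.3, 14.0 and 15.1 in SUC3. Both overlapped control in these diets.

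**Figure D5:**
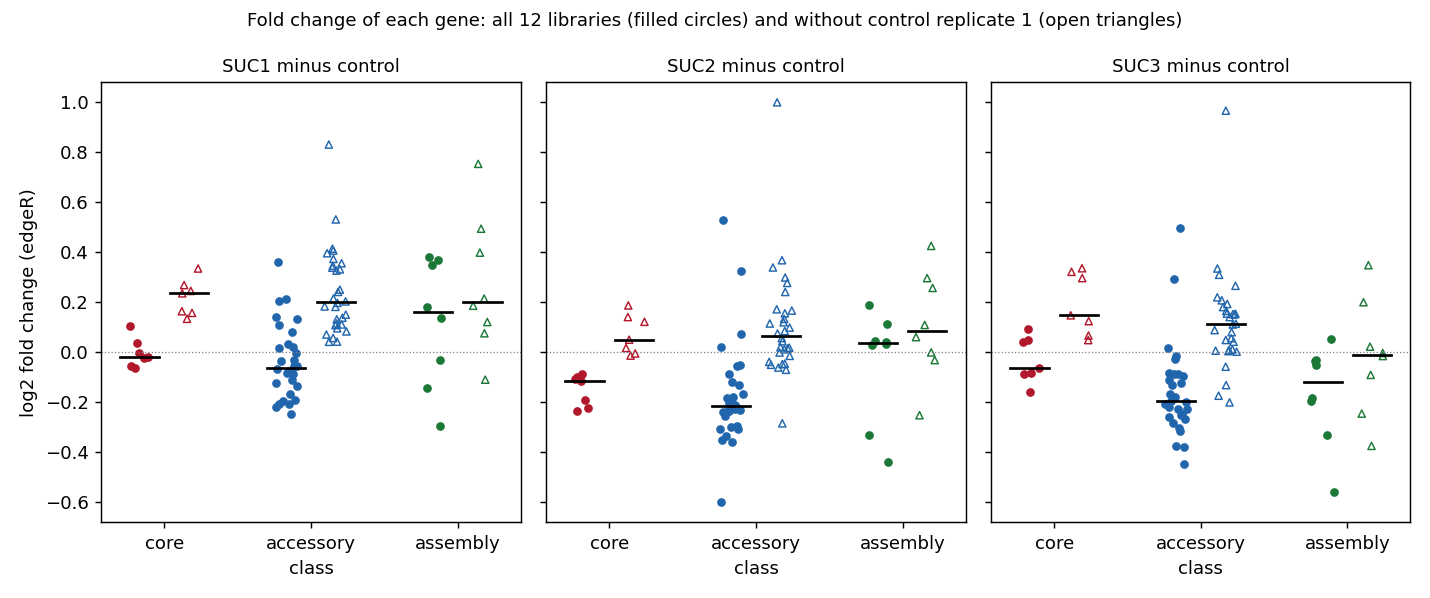
Each point is the log2 fold change of 1 core, accessory or assembly gene against control (vertical axis) for SUC1, SUC2 and SUC3, with all 12 libraries (filled circles) and without control replicate 1 (open triangles); black lines are class medians. With all libraries the accessory medians are -0.06, -0.21 and -0.20, and without control replicate 1 they are 0.20, 0.07 and 0.11.

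Comparisons between succinate diets do not contrast the control libraries, which still share the scaling and the estimate of spread. In SUC2 against SUC1, 0 of 47 members passed by edgeR, DESeq2 or limma (edgeR called 0% of all genes), 0 had an unadjusted p under 0.05 (8.57% of all genes) and 42 of 47 had a negative fold change (48.4% of all genes), with a median of -0.16. With limma on unscaled FPKM 33 of 47 were negative. The median was -0.31 without SUC1 replicate 1 and -0.04 without SUC1 replicate 3. NDUFA7 and NDUFAF6 had SUC2 libraries below every SUC1 library, 2 of 47 against 6.43% of all genes, and 0 members lay above, against 7.23%. In SUC3 against SUC2, 0 of 47 passed by these tools (edgeR called 0.015%), 0 had an unadjusted p under 0.05 (11.5% of all genes) and 24 of 47 were negative (50.2%), with a median of -0.00. NDUFA7 was the 1 member with SUC3 above SUC2 without overlap, against 7% of all genes, and 0 lay below, against 7.46%. In SUC3 against SUC1, 0 of 47 passed by these tools (edgeR called 0%), 0 had an unadjusted p under 0.05 (7.31% of all genes) and 38 of 47 were negative (50.2%), with a median of -0.13. All 8 assembly factors were negative there with a median of -0.28, and NDUFAF2, NDUFAF6 and NDUFAF8 had SUC3 libraries below every SUC1 library, 3 of 47 against 6.06% of all genes, while 0 members lay above, against 5.97%. With limma on unscaled FPKM 26 of 47 members were negative in SUC3 against SUC1. The median of all members in SUC3 against SUC1 was 0.00 without SUC1 replicate 3. Without control replicate 1, 1 of 47 members had an unadjusted edgeR p under 0.05 in SUC2 against SUC1, as did 1176 of all genes tested. In SUC3 against SUC1 it was 1 of 47 members and 1020 of all genes. With all libraries these counts over all genes were 1142 and 974. The smallest edgeR adjusted p among members without control replicate 1 was 0.568 and 0.643.

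The precision of 3 libraries per diet bounds what these comparisons could show. For each comparison with control the median half-width of the 95% interval over the 47 members was 0.51 log2 units. The interval lay within -1 to 1 log2 units for 45 of 47 members in SUC1, 44 in SUC2 and 43 in SUC3. The difference from control was smaller than the pooled SD of log2 CPM within diets in 43, 39 and 40 of 47 members. Smaller differences than these intervals allow were not detectable at this replication.

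NDUFAF1, which acts in the membrane arm assembly complex, completes the assembly factors. It was at 42.4, 31.4 and 41.6 CPM in control, 37.2, 42.9 and 46.9 in SUC1, 43.1, 36.5 and 38.4 in SUC2 and 39.8, 32.9 and 38.5 in SUC3, with overlap throughout.

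Subunits were also grouped by their place in the complex. The NADH module (8 genes: NDUFV1, NDUFV2, NDUFS1, NDUFV3, NDUFS4, NDUFS6, NDUFA2 and NDUFA12) had medians of -0.05, -0.22 and -0.17 in SUC1, SUC2 and SUC3, and 0 passed. The ubiquinone module (5 genes, NDUFA5 among them) had medians of -0.00, -0.12 and -0.08. The proximal membrane module (8 genes) had medians of -0.09, -0.18 and -0.12, and the distal membrane module (12 genes) of -0.04, -0.22 and -0.18. The medians without control replicate 1 in SUC1, SUC2 and SUC3 were 0.16, -0.02 and 0.06 for the NADH module and 0.24, 0.05 and 0.12 for the ubiquinone module. They were 0.22, 0.11 and 0.15 for the proximal and 0.21, 0.09 and 0.13 for the distal membrane module. No module had a member past the threshold, and the order of modules was not tested. NDUFA5 has a copy in the table under a placeholder identifier with 274 to 595 counts per library, so its value is uncertain.

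The 2 NDUF genes outside complex I differed in level. NDUFA4, now counted as a subunit of cytochrome c oxidase (complex IV), was the most abundant NDUF gene at 601 FPKM. It was at 511, 236 and 273 CPM in control, 197, 359 and 364 in SUC1, 322, 280.2 and 245 in SUC2 and 304, 289 and 297 in SUC3. Control replicate 1 was high and SUC1 replicate 1 low, and every diet overlapped control. NDUFA4L2, its paralog, which hypoxia induces in human cells, was at 1.06 to 3.41 CPM over the 12 libraries, with overlap in every diet. Neither passed (smallest edgeR adjusted p against control 0.687).

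The remaining genes of the pathway were taken from lists. Of the 7 mitochondrially encoded complex I genes, 0 passed in any comparison by edgeR, with medians of 0.15, -0.02 and -0.11 in SUC1, SUC2 and SUC3. ND5, a proton-pumping subunit, was at 83.0, 22.4 and 81.8 CPM in control, 29.4, 12.1 and 39.5 in SUC1, 18.0, 20.2 and 44.3 in SUC2 and 28.8, 23.0 and 28.3 in SUC3. Control replicates 1 and 3 were high and control replicate 2 lay within the range of the succinate libraries. Its log2 fold changes were -1.21 ± 0.50, -1.18 ± 0.50 and -1.22 ± 0.50 (edgeR adjusted p = 0.586, 0.234 and 0.344). ND1, a membrane subunit at the ubiquinone site, was at 447, 2144 and 306 CPM in SUC3 and at 1713 to 8048 CPM in the other libraries. Its 2 low libraries were SUC3 replicates 1 and 3 (log2 fold change -1.38 ± 0.64, edgeR adjusted p = 0.4). ND4L was instead high in those libraries, at 319, 150 and 313 CPM in SUC3 and 194, 109 and 144 in control. ND2 was at 3850, 4930 and 4311 CPM in SUC3, below every control at 6031 to 6990. Groups without overlap on the low side in SUC3 were found for 8.88% of all genes.

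Assembly factors without the NDUF name were tested for 12 genes and 0 passed, with 7, 10 and 9 negative in SUC1, SUC2 and SUC3 and medians of -0.07, -0.15 and -0.14. TMEM70, named after its values were seen, which also serves ATP synthase assembly, was at 46.6, 37.4 and 30.3 CPM in control and 24.1, 26.3 and 29.7 in SUC3, a difference of -0.51 ± 0.26 (edgeR adjusted p = 0.448). TMEM70, TIMMDC1 and TMEM126B had SUC3 libraries below every control, 3 of 12 against 8.88% of all genes. In SUC1 only FOXRED1 did so, against 6.81% of all genes, and in SUC2 only TIMMDC1, against 10.6%. Control replicate 1 was the highest control for TMEM70, TIMMDC1 and TMEM126B, and values without it are not given for these genes. Complex II had 4 genes tested and 0 passed, with medians of 0.01, -0.11 and -0.04, and SDHA, the flavoprotein that oxidises succinate, was lowest in SUC2 replicate 2 at 372 CPM, as was NDUFS1. Of 9 regulators of mitochondrial gene expression 0 passed, and 8 of 9 were positive in SUC2, where 50.2% of all genes were negative. PPRC1, NRF1, GABPB1 and YY1 lay wholly above control in SUC2, 4 of 9 against 11.5% of all genes. PPRC1, a coactivator related to PPARGC1A, was at 11.4, 13.6 and 11.98 CPM in control and 19.7, 22.5 and 30.3 in SUC2 (log2 fold change 0.97 ± 0.27, edgeR adjusted p = 0.0844). PPARGC1B, another coactivator, was at 35.8, 40.0 and 39.0 CPM in control and 13.2, 11.8 and 21.8 in SUC2, the 1 regulator wholly below control against 10.6% of all genes (log2 fold change -1.29 ± 0.32, edgeR adjusted p = 0.0638).

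Across libraries the members kept a shared pattern, given here as a description over 12 libraries that share their scaling. The median Pearson correlation of log2 CPM between pairs of core genes was 0.75 (21 pairs), between pairs of accessory genes 0.76 (435 pairs) and between accessory and core genes 0.69 (210 pairs). Assembly factors followed less closely: the medians were 0.49 with accessory genes (240 pairs), 0.37 with core genes (56 pairs) and 0.28 among themselves (28 pairs). With diet means removed the values were 0.77, 0.82, 0.72, 0.56, 0.44 and 0.20 in the same order. These medians were not taken without control replicate 1 or over pairs of all genes. The part of that library in them was thus not tested. NDUFA11 followed the mean of the other members most closely (0.98), and NDUFB1 (0.05) and NDUFAF8 (0.06) least. Outside the NDUF genes, the 5 with the pattern most like the members' mean were LOC101110664, described as cytochrome c oxidase subunit 5B (0.96), PDHB of pyruvate dehydrogenase (0.96), the malate dehydrogenase MDH1 (0.96), the succinate-CoA ligase subunit SUCLA2 (0.95) and the complex III subunit UQCRH (0.95). Their Spearman values were 0.92, 0.97, 0.99, 0.92 and 0.93, and without control replicate 1 and SUC1 replicate 3, the libraries farthest from the median, Pearson values were 0.91, 0.95, 0.87, 0.92 and 0.88.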

How the data were processed

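RNA sequencing libraries of longissimus dorsi from sheep on 4 diets, 3 per diet, were used. The authors deposited whole-number read counts per gene and FPKM values in 1 table, per the file headers. The deposited FPKM were recomputed from counts, gene length and column totals with a largest relative difference of 5.1e-15. Aligner, counter and strand use: not given in the sources used here; reads of genes that overlap on the 2 strands may thus be mixed. Per the submitters' processing notes the builds were GRCm38 and mm10, which are mouse assemblies, while the identifiers in the table are those of sheep. Its build is not named, so coordinates are given as in the table. All 47 NDUF GeneIDs matched the RefSeq table of ARS-UI_Ramb_v3.0, which gave chromosome labels, and 26 had the same start and end there.

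Genes were kept by filterByExpr with diet as group. Counts were scaled by TMM and fitted with the quasi-likelihood model of edgeR 4.0.16 (R 4.3.3) to all 12 libraries, with diet as the factor and 8 residual degrees of freedom (biological coefficient of variation 0.279). The slope over succinate percent had a fit of its own. P-values, two-sided, were adjusted by Benjamini-Hochberg across the 13319 genes, and 0.05 was the threshold. A standard error is the size of the log2 fold change divided by √F. Log2 CPM used a prior count of 2 in medians and correlations. DESeq2 1.42.0 and limma 3.58.1, on log2 FPKM with a pseudocount of 1 or 0.1, were alternatives, beside another scaling, filters, pairwise fits, a replicate block and leaving out each library. Scripts were tested on simulated counts. Depth was 15742428 to 18564057 counts, and floors of 3 counts cover counting error only, while the 95% intervals include the spread among libraries.

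Members, classes, modules and lists were chosen with earlier results of these data known. Values in every library were given for the core subunits except 1, which is not reported here, for any member past the threshold and for the 3 genes of smallest p per class in each comparison with control and in the joint test. Within diets, every pair of libraries differed by more than sampling noise. Replicate numbers were not taken to pair libraries across diets, since the labels do not say that they do.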

Additional observations from a re-analysis of the deposited data

How the results depend on the processing

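No NDUF gene passed in any comparison under any alternative run, including every setting named here. The number of all genes past the threshold moved by over 1.5 times in these cases. With every gene that has a count, it was 3 in SUC3 against control, 1 in SUC2 against SUC1, 6 in SUC3 against SUC2 and 105 in the joint test. With a mean of at least 5 CPM it was 4 in SUC3 against control and 2 for the slope. DESeq2 gave 70, 841 and 241 for SUC1, SUC2 and SUC3 against control, 42, 239 and 65 for SUC2 against SUC1, SUC3 against SUC2 and SUC3 against SUC1, 124 for the slope and 798 jointly. Limma on log2(FPKM + 1) gave 0 in SUC3 against control, 2 in SUC2 against SUC1, 4 in SUC3 against SUC2, 0 for the slope and 5 jointly; with a pseudocount of 0.1 it gave 0 in SUC3 against control, 1 in SUC2 against SUC1 and 0 for the slope. Unscaled FPKM moved the median of all genes in SUC2 against SUC1 to 0.11, where 33 of 47 members were negative. With only the libraries of the diets compared, 8 passed in SUC1 against control and 5 in SUC3 against SUC2. Why these counts moved was not tested.

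With a replicate block, 122 genes passed in SUC2 against control, 0 in SUC3 against control, 1 in SUC2 against SUC1, 1 in SUC3 against SUC2 and 0 for the slope. With diet means removed, same-numbered libraries of different diets had correlations of -0.17 to 0.17 (18 pairs). Libraries with different numbers and different diets had correlations of -0.24 to 0.21 (36 pairs). The labels do not state a pairing, and the numbers were not taken to pair libraries.

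Leaving out 1 library at a time gave 0 to 7 genes for SUC1, 0 to 332 for SUC2 and 0 to 11 for SUC3 against control, 0 to 1 in SUC2 against SUC1, 1 to 66 in SUC3 against SUC2, 0 to 2 in SUC3 against SUC1, 0 to 12 for the slope and 0 to 85 jointly. Against control, the member median of SUC1 ranged from -0.19 to 0.20, that of SUC2 from -0.32 to 0.060 and that of SUC3 from -0.26 to 0.11. It ranged from -0.31 to -0.04 in SUC2 against SUC1, -0.09 to 0.11 in SUC3 against SUC2, -0.28 to 0.00 in SUC3 against SUC1 and -0.12 to -0.00 for the slope. Class medians against control ranged for core genes from -0.13 to 0.24, -0.29 to 0.05 and -0.14 to 0.15 in SUC1, SUC2 and SUC3, for accessory genes from -0.22 to 0.20, -0.35 to 0.07 and -0.33 to 0.11, and for assembly factors from 0.09 to 0.23, -0.15 to 0.09 and -0.18 to -0.01. Single genes turned direction in SUC1 (NDUFS1 -0.095 to 0.33, NDUFS8 -0.16 to 0.16, NDUFV2 -0.20 to 0.16, NDUFC1 -0.42 to 0.070), SUC2 (NDUFS3 -0.31 to 0.017) and SUC3 (NDUFV2 -0.28 to 0.066, NDUFS7 -0.17 to 0.048, NDUFS3 -0.20 to 0.12, NDUFAF8 -0.31 to 0.0037).

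Leaving out control replicate 1 and SUC2 replicate 2 together was chosen after seeing the data. It gave 8, 125 and 20 genes in SUC1, SUC2 and SUC3 against control and 12 jointly, with a member median of 0.11 in SUC3. NDUFS8, NDUFV2 and NDUFC1 were then at 0.16, 0.16 and 0.071 in SUC1, NDUFS3 and NDUFS6 at 0.045 and 0.024 in SUC2, and NDUFV2, NDUFS7 and NDUFS3 at 0.066, 0.048 and 0.12 in SUC3. Where control replicate 1 is left out, the lower levels of most members in the succinate diets are not seen, and with 3 libraries per diet this limits every statement on their direction.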
